A study of Mus musculus with 36 samples.

Results

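The axon guidance genes of the ephrin, Slit and netrin systems were followed in RNA-seq of 2 brain regions of mice that lacked 0, 1 or 2 copies of *Pogz*. All rows of the gene count tables were taken whose symbol names an Eph receptor, an ephrin, a Slit, a Robo, a netrin, a netrin-G, an Unc5 receptor or Dcc, which gave 40 of 24421 genes. These were 14 Eph receptors, 8 ephrins, 3 Slits, 4 Robo receptors, 4 netrins, 2 netrin-G genes and 5 netrin receptors (Dcc and 4 Unc5 genes). The symbols chose the members, and no measured value entered the choice.

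Ephrins are ligands held on the cell surface, by a lipid anchor in the ephrin-A group and by a membrane-spanning segment in the ephrin-B group, and they bind the Eph receptor tyrosine kinases of neighbouring cells. Slits are secreted and repel axons and migrating neurons that carry Robo receptors, while netrins attract growth cones through Dcc and repel them through Unc5 receptors. In the developing brain these signals steer axons and migrating neurons, granule cells of the cerebellum among them, and in the adult hippocampus several of the same proteins sit at synapses.

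Poly(A) RNA of cerebellum and hippocampus was sequenced from 18 adult C57Bl/6 mice that each gave both tissues, 3 males and 3 females of each genotype. Controls were littermates with floxed *Pogz* alleles (*Pogz* fl/fl) and no Cre, cKO+/- mice carried NesCre/+ and *Pogz* fl/+, and cKO-/- mice carried NesCre/+ and *Pogz* fl/fl. Cre under the *Nestin* promoter removes exons of *Pogz*, a gene for a zinc finger protein of transcriptional repression, in the central and peripheral nervous system. No group carried NesCre with intact *Pogz*, so between controls and mutants an effect of the Cre transgene and an effect of the loss of *Pogz* cannot be told apart. The cKO+/- and cKO-/- mice both carried NesCre/+, but the change per allele lost is fitted with the controls included. Sequenced counts on genes ranged from 21421850 to 32544929 per cerebellar library and from 17609321 to 45544188 per hippocampal library.

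The labels were checked before the members were read. *Pogz* lay between 89.6 and 129.6 CPM (counts scaled to library size, within each tissue) in cerebellar controls, between 66.4 and 81.5 CPM in cKO+/- and between 57.0 and 74.0 CPM in cKO-/-. Hippocampal *Pogz* was 89.0 to 92.8 CPM in controls, 74.0 to 80.2 CPM in cKO+/- and 53.6 to 67.7 CPM in cKO-/-, so that all 3 genotypes were apart there. These counts cover the whole gene, of which the deletion takes only some exons, so they do not measure how complete the deletion was. Granule cell *Gabra6* was 910 to 1040 CPM in cerebellar controls, and the hippocampal neuron gene *Neurod6* was 149 to 234 CPM in hippocampal controls against 6.19 to 9.14 CPM in the cerebellum. In hippocampal controls *Gabra6* had a median of 0.11 CPM but reached 49.4 CPM. Summed granule cell markers were 634.5 CPM in the hippocampal control Sample_1129 and 332.5 to 384.4 CPM in the other hippocampal controls. Animals are named as in the labels. A single hippocampal library stood apart, that of the cKO-/- female Sample_1160: its median correlation with the other hippocampal libraries (across genes, log2 scale) was 0.879. The study left out 1 RNA sample that it did not name, and the hippocampal fits below leave out this library, with its values and the fit of all 18 libraries given for the members named.

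Before genotype, the control mice were compared between the tissues, to place each member in the brain. Most guidance genes differed between the tissues, the larger number of them higher in the hippocampus. Of the 39 members tested (all but *Efna4*), 37 passed an adjusted p of 0.05 in edgeR's quasi-likelihood test with Benjamini-Hochberg adjustment, against 71.9% of all 14224 genes tested, and 24 of these were higher in the hippocampus (35.2% of all genes) and 13 lower (36.7%). With a difference of at least 2-fold, 27 members passed against 24% of all genes, 20 of them higher in the hippocampus against 14.4%. The median size of the log2 difference, whatever its direction, was 2.30 over the members and 0.43 over all genes. *Epha3* and *Efnb2* were the members that did not pass. These are bulk tissues, in which fewer cells of a type and less RNA per cell cannot be told apart.

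The Slits gave the widest gap. Levels are compared between genes per exon length, as RPKM (reads per kilobase of exon, with all 36 libraries on one scale of library size). *Slit1*, a secreted repellent, was 60.7 to 79.2 RPKM in the 6 hippocampal controls (median 68.1) and 0.0198 to 0.0961 RPKM in the cerebellar ones (median 0.0398). There it rested on 3 to 15 counts per library and 43 counts in all. The fitted log2 difference, hippocampus minus cerebellum, was 10.5 (SE 0.17, adjusted p = 1.59e-14 with edgeR). *Slit2* had a median of 4.62 RPKM in the hippocampus against 0.245 RPKM in the cerebellum, with 3.96 RPKM as the lowest hippocampal and 0.396 RPKM as the highest cerebellar control (log2 difference 4.34, SE 0.25, edgeR adjusted p = 2.30e-09). *Slit3* followed with a log2 difference of 2.62. For each of the 3 Slits, the lowest hippocampal control lay above the highest cerebellar one.

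The receptors of the Slits went the same way apart from *Robo4*, a receptor known from endothelial cells, which was lower in the hippocampus (log2 difference -0.61). *Robo3*, which modulates the response to Slits at the midline, was 8.64 to 13.3 RPKM in the hippocampus and 0.1098 to 0.175 RPKM in the cerebellum, where 14 to 26 counts per library stood behind it. Its log2 difference was 6.14 (SE 0.14, edgeR adjusted p = 3.74e-13). *Robo1* and *Robo2*, the main Slit receptors of neurons, were higher in the hippocampus by 1.58 and 1.75 on the log2 scale.

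Netrins and their receptors split by member. *Ntn1*, the classical secreted attractant, was 14.6 to 20.8 RPKM in the cerebellum and 1.45 to 2.75 RPKM in the hippocampus (log2 difference -3.27, SE 0.15, edgeR adjusted p = 2.06e-10). *Ntn4*, a netrin of basement membranes, was 10.02 to 15.5 RPKM in the cerebellum and 1.19 to 2.42 RPKM in the hippocampus (log2 difference -2.84). *Dcc*, the attractive netrin receptor, had the reverse pattern, with 4.02 to 5.69 RPKM in the hippocampus and 0.296 to 0.399 RPKM in the cerebellum (log2 difference 3.92, SE 0.12, edgeR adjusted p = 3.19e-12). Of the repulsive receptors, *Unc5b* was higher in the cerebellum (22.5 to 29.0 RPKM against 3.95 to 7.58 RPKM, log2 difference -2.17) and *Unc5a* in the hippocampus (log2 difference 2.30). *Ntn5* was 1.65 to 4.57 RPKM in the hippocampus and 0 to 0.1004 RPKM in the cerebellum, where 18 counts over 6 libraries leave its log2 difference of 6.14 (SE 0.40) poorly set. Some of its counts are also uncertain, since 23.42% of its exon length overlaps exons of *Sec1* on the other strand and the use of strand in counting is not given in the sources used here.

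Among the Eph receptors the A class divided most clearly. *Epha4*, a receptor for ephrins of both classes, had the highest level of all members in the hippocampus, at 64.1 to 100.2 RPKM, and was 3.72 to 5.66 RPKM in the cerebellum (log2 difference 3.95, SE 0.14, edgeR adjusted p = 1.37e-11). *Epha8* stood opposite, with 13.9 to 18.2 RPKM in the cerebellum and 0.711 to 1.86 RPKM in the hippocampus (log2 difference -3.85, SE 0.17, edgeR adjusted p = 1.89e-10). *Epha1* and *Epha2* were also lower in the hippocampus, by log2 differences of -2.47 and -1.64, at levels that did not pass 1.67 RPKM in any control. The receptors *Epha5*, *Epha6*, *Epha7*, *Epha10* and *Ephb6* were higher in the hippocampus by log2 differences of 2.57 to 3.91. The ephrins went either way. *Efna3* (2.83) and *Efnb3* (1.80) were higher in the hippocampus, *Efna5* (-1.05) was lower, and *Efna4* stayed below the filter in both tissues, at 0.0755 to 0.544 CPM in cerebellar and 0.364 to 1.003 CPM in hippocampal controls.

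**Figure D1:**
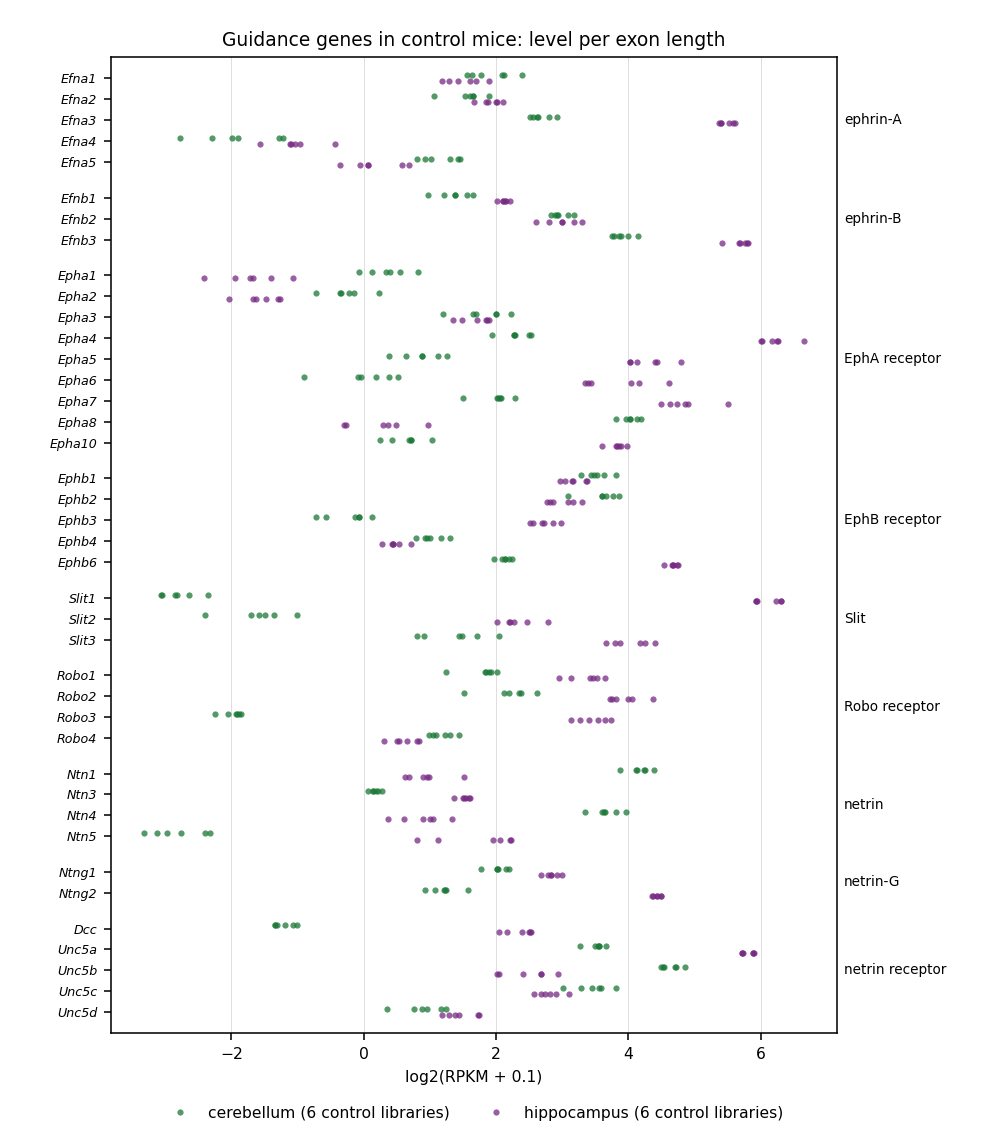
Level of each of the 40 genes in the 6 cerebellar (green) and 6 hippocampal (purple) control libraries, as log2(RPKM + 0.1) on the horizontal axis, with genes grouped by type. One point is 1 library. The 3 Slits, *Robo3*, *Dcc* and *Epha4* lie far to the right in the hippocampus, and *Epha8*, *Ntn1* and *Ntn4* in the cerebellum.

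Summed per type, EphA receptors reached 34.6 ± 4 RPKM in the cerebellum and 158.9 ± 31.6 RPKM in the hippocampus (mean ± SD, n = 6 controls each). The Slits summed to 2.95 ± 0.935 against 90.7 ± 12 RPKM, and the 4 netrins to 31.7 ± 3.49 against 9.86 ± 1.44 RPKM. In the cerebellum *Unc5b* (25.0 RPKM), *Ntn1* (17.9 RPKM) and *Epha8* (16.2 RPKM) had the highest mean levels of the 40 genes, and in the hippocampus *Epha4* (75.6 RPKM), *Slit1* (69.3 RPKM) and *Unc5a* (55.9 RPKM). With the animal as a block, since each mouse gave both tissues, the same 37 members passed, among 10377 genes in all.

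The promoters of some members, picked with the genotype results known, are shown next, taken from RefSeq on GRCm38.p6, where 35 of the 40 members had an entry. They are the 250 bases before the RefSeq gene start of 3 genes that rose in the mutant cerebellum (*Epha5*, *Ephb6*, *Slit2*) and of *Epha10*, which fell in the mutant hippocampus, 5′ to 3′, with CG dinucleotides in capitals. For *Ephb6* the gene in the count table starts at position 41605482, inside the stretch shown, and the other 3 stretches end where the gene in the table begins.
Epha5 (chr5:84417383-84417632, minus strand): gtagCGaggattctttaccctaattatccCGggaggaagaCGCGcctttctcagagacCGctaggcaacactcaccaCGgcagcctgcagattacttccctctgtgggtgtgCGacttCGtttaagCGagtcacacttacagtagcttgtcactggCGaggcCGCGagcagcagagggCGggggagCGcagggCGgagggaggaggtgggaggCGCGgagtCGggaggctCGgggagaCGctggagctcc
Ephb6 (chr6:41605261-41605510, plus strand): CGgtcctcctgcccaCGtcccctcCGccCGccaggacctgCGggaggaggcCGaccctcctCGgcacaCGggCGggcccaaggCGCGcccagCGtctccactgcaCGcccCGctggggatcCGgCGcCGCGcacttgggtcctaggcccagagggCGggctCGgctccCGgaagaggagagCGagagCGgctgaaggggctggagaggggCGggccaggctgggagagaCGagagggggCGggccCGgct
Slit2 (chr5:47982905-47983154, plus strand): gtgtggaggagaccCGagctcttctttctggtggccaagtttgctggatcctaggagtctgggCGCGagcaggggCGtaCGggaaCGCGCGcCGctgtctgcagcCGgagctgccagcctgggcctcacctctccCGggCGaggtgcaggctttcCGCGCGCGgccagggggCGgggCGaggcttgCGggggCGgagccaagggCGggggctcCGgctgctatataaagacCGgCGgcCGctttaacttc
Epha10 (chr4:124881535-124881784, plus strand): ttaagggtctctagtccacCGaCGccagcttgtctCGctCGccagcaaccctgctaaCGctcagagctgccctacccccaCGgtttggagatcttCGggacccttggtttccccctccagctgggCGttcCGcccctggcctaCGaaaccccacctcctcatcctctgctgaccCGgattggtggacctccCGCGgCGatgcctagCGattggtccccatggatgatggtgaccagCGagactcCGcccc
They hold 20, 27, 25 and 17 CG dinucleotides in this order. Over the 35 members the median was 16 (from 2 to 46), against 6 over all 32851 promoter entries. Each member entered with a single promoter. The entries compared hold several for some genes and were not limited to genes expressed in these tissues. The sets are therefore unlike, here and for the GC box. The GC box GGGCGG, searched on both strands, was in the 250 bases of 24 of the 35 members (68.6%) and of 32.7% of all entries, and all 4 promoters printed here hold it. Among the other members with an entry that rose in the mutant cerebellum, *Efnb2*, *Epha4*, *Epha6* and *Epha7* hold it, and *Robo1*, *Robo2* and *Ntng2* do not. A match of these letters is a description of the sequence and not evidence of binding.

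In the cerebellum, loss of *Pogz* went with higher counts of 5 of the 14 Eph receptors, of *Robo1* and *Robo2*, and of *Slit2* and *Dcc*. The change was fitted per allele lost, over 18 libraries with sex as a covariate, with edgeR's quasi-likelihood test and Benjamini-Hochberg adjustment over 14027 genes. Of 37 members above the filter (CPM above 1 in at least 6 libraries), 14 passed an adjusted p of 0.05, a share to be read against 13.7% of all genes tested. The direction was uneven: 12 rose (7.11% of all genes tested) and 2 fell (6.55%). The median change over the members was 0.10 on the log2 scale, against 0.0009 over all genes, and 28 of the 37 lay above 0 against 50.4% of all genes. In 9 members all cKO-/- libraries lay on one side of all controls, which was the case for 4.58% of all genes.

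Of the 9 EphA receptors 4 rose, *Epha4*, *Epha5*, *Epha6* and *Epha7*. *Epha5* changed most clearly. Its 6 controls were 12.1, 18.3, 13.7, 14.0, 9.67 and 16.7 CPM, and cKO+/- ran from 20.3 to 28.2 CPM (median 23.8) and cKO-/- from 29.2 to 40.2 CPM (median 32.1). The 3 genotypes did not overlap, and the log2 change per allele lost was 0.63 (SE 0.069, adjusted p = 9.92e-06 with edgeR), which came to 2.40-fold between cKO-/- and control. *Epha5* was also the member for which cKO+/- alone differed from control (log2 difference 0.78, edgeR adjusted p = 0.00777), while no other member passed in that comparison.

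*Epha6* was 1.89 to 5.74 CPM in controls, 4.15 to 8.12 CPM in cKO+/- and 5.58 to 10.2 CPM in cKO-/- (log2 change per allele 0.49, SE 0.11, edgeR adjusted p = 0.00712). *Epha7* was 22.5 to 39.2 CPM in controls and 43.2 to 57.7 CPM in cKO-/-, with no overlap, and 29.4 to 53.2 CPM in cKO+/- (0.29, SE 0.065, edgeR adjusted p = 0.00815). *Epha4* gained less, from a median of 30.8 CPM in controls to 42.1 CPM in cKO-/-, and its groups overlapped (0.22, SE 0.057, edgeR adjusted p = 0.0177). *Epha8*, the EphA receptor with the highest cerebellar level, was 67.8 to 87.6 CPM in controls and 65.9 to 96.3 CPM in cKO-/- and did not pass (0.04, edgeR adjusted p = 0.584).

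Of the 5 EphB receptors, 1 passed. *Ephb6*, which lacks kinase activity, was 14.8 to 17.9 CPM in the 6 controls, 17.1 to 32.5 CPM in cKO+/- and 23.9 to 40.8 CPM in cKO-/-. All cKO-/- libraries lay above all controls, and the log2 change per allele was 0.44 (SE 0.068, edgeR adjusted p = 0.000466). *Ephb1*, *Ephb2*, *Ephb3* and *Ephb4* had log2 changes between -0.0008 and 0.12 and did not pass.

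The ephrins went in both directions. *Efnb2*, a membrane-spanning ligand, was 31.3 to 39.9 CPM in controls, 35.4 to 46.1 CPM in cKO+/- and 41.3 to 52.9 CPM in cKO-/-, so that cKO-/- and controls did not overlap (log2 change per allele 0.20, SE 0.038, edgeR adjusted p = 0.00270). *Efna1*, a lipid-anchored ligand, fell from 5.002 to 8.74 CPM in controls to 2.47 to 4.93 CPM in cKO-/-, again with no overlap (-0.38, SE 0.093, edgeR adjusted p = 0.0125). The other 5 ephrins tested did not pass.

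*Slit2* had the largest fold change of the members that passed. The 6 controls were 1.90, 3.47, 2.23, 2.06, 0.8001 and 2.54 CPM, the 6 cKO+/- 13.4, 5.76, 4.27, 1.77, 3.67 and 19.4 CPM, and the 6 cKO-/- 23.7, 4.87, 5.33, 8.66, 10.2 and 10.8 CPM. All cKO-/- lay above all controls, but the spread within the mutants was wide, with Sample_933 and Sample_1433 the high cKO+/- animals and Sample_936 the high cKO-/- animal. The log2 change per allele was 1.11 (SE 0.26, edgeR adjusted p = 0.00936), and cKO-/- was 4.81-fold above control. *Slit1*, named for this tissue after its values were seen, had a larger fitted change (1.40, SE 0.57) that did not pass (edgeR adjusted p = 0.105). It was 0.106 to 0.516 CPM in controls, 0.205 to 10.4 CPM in cKO+/- and 0.0893 to 6.80 CPM in cKO-/-, with the high values in animals Sample_1433 and Sample_1385, and it passed in 3 of the alternatives, namely with DESeq2, without Sample_1433, and with cKO-/- set against control. *Slit3* did not pass (-0.0032, SE 0.107).

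Both Robo receptors above the filter that are known from neurons rose. *Robo1* was 17.9 to 30.6 CPM in controls, 34.2 to 40.3 CPM in cKO+/- and 32.0 to 53.5 CPM in cKO-/-, so that both mutant groups lay above all controls (log2 change per allele 0.36, SE 0.063, edgeR adjusted p = 0.00128). *Robo2* was 23.0 to 50.0 CPM in controls and 49.0 to 72.7 CPM in cKO-/-, where the highest control reached the lowest mutant (0.31, SE 0.076, edgeR adjusted p = 0.0139). *Robo4* did not pass (-0.11), and *Robo3* stayed below the filter, at 0.279 to 0.951 CPM in cKO-/- and 0.529 to 0.851 CPM in controls.

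In the netrin system *Dcc* rose from 3.13 to 4.19 CPM in controls to 5.18 to 10.02 CPM in cKO-/-, with no overlap, while cKO+/- spread from 3.39 to 9.34 CPM (log2 change per allele 0.48, SE 0.12, edgeR adjusted p = 0.0143). *Ntng2*, a lipid-anchored netrin-G of synapses, was 3.57 to 5.71 CPM in controls and 5.86 to 10.2 CPM in cKO-/- (0.35, SE 0.075, edgeR adjusted p = 0.00593). For *Ntng2*, 14.14% of the exon length is shared with *6530402F18Rik* on the same strand, which leaves its count uncertain. *Ntn1* passed by little (0.20, SE 0.065, edgeR adjusted p = 0.0430) and rested on 3 cKO-/- animals, Sample_1371, Sample_1379 and Sample_1385, at 168.4 to 182.5 CPM, while the other 3 cKO-/- animals were at 99.7 to 121.9 CPM and controls at 86.8 to 121.4 CPM. *Unc5a*, a repulsive receptor, was 39.1 to 53.2 CPM in controls and 29.8 to 46.2 CPM in cKO-/-, with overlap, and fell by 0.13 on the log2 scale (SE 0.043, edgeR adjusted p = 0.0479). The calls of *Ntn1* and *Unc5a* were lost in 13 and 16 of 28 alternatives. *Unc5b*, *Unc5c*, *Unc5d*, *Ntn3*, *Ntn4* and *Ntng1* did not pass, and *Ntn5* was below the filter at 0 to 0.448 CPM over all 18 libraries.

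**Figure D2:**
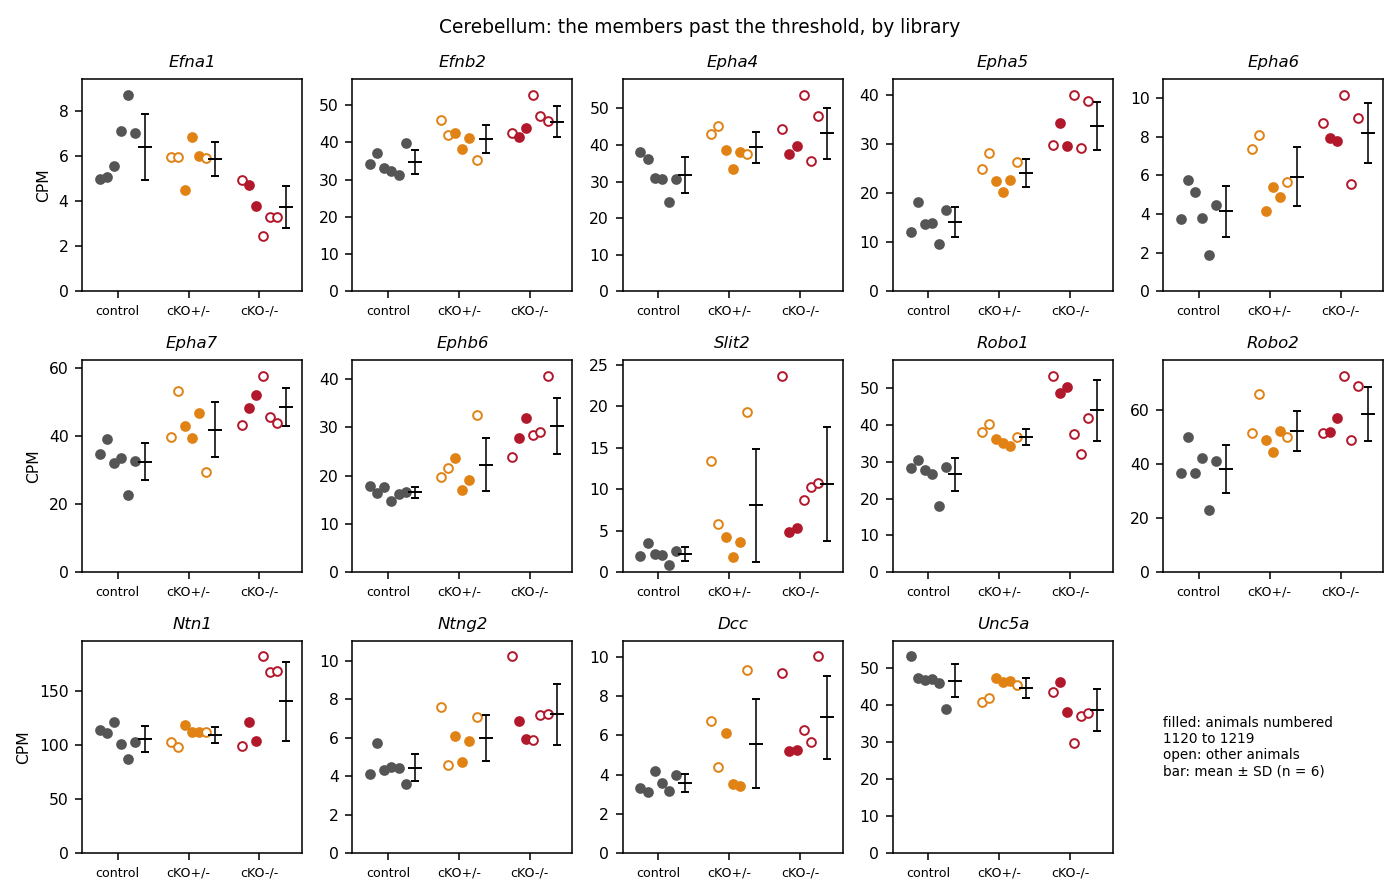
CPM of the 14 members past the threshold in the cerebellum, 1 panel per gene, 1 point per library, grouped by genotype (6 each), with mean and SD as the bar beside each group. Filled points are animals from Sample_1120 to Sample_1219, which hold all controls, and open points the others. *Epha5* shows 3 separate groups, and the highest values of *Slit2*, *Dcc* and *Ntn1* are open points.

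These results shared their course with other differences between the libraries. All controls carry names from Sample_1120 to Sample_1219, as do 3 cKO+/- and 2 cKO-/- animals, and 7 mutants carry lower or higher numbers. With a term for this span of numbers, 4 of the 14 calls held (*Epha5* 0.55, *Ephb6* 0.38, *Robo1* 0.37 and *Epha7* 0.31 per allele), and *Slit2* went from 1.11 to 0.52 (edgeR adjusted p = 0.187) and *Dcc* from 0.48 to 0.26 (edgeR adjusted p = 0.299). What the numbers stand for is not given in the labels. Summed over 11 granule cell markers, cerebellar libraries lay between 6895 and 8959 CPM except those of Sample_1371, Sample_1379, Sample_1385 and Sample_1433, at 4168 to 5479 CPM. Without these 4 libraries, an alternative added after the data were seen, 9 members passed, 8 of them from the 14, with *Ntn4* added and *Epha4*, *Ntn1*, *Unc5a*, *Robo2*, *Dcc* and *Efna1* lost, and *Ntn1* was at 0.03 (edgeR adjusted p = 0.698). The 10 choroid plexus markers summed to 2413, 3101 and 3227 CPM in Sample_933, Sample_936 and Sample_1433 and to 21.5 to 82.5 CPM in all others. Without these 3 libraries, likewise added, the same 14 members passed, with *Slit2* at 0.94 (edgeR adjusted p = 0.00211). With marker scores of choroid plexus, midbrain and brainstem as covariates 15 members passed, these 14 and *Epha1*, whose change without the scores was -0.26 (edgeR adjusted p = 0.0597). Over all genes, the main fit called 1916. With the term for animal numbers 308 were called, without the 4 libraries 503, without the 3 libraries 1428 and with the scores 2130. The 10 meninges markers summed to 238 to 321 CPM in controls, 303 to 485 CPM in cKO+/- and 315 to 612 CPM in cKO-/-, 6 of the 10 rose, and 4 of 10 markers each of oligodendrocytes, astrocytes and microglia rose too. The astrocyte genes *Gfap* (128 to 153 CPM in controls, 215 to 368 CPM in cKO-/-) and *Aqp4* (410.5 to 512 CPM in controls, 665 to 761.5 CPM in cKO-/-) did not overlap between these groups, and were named after their values were seen. The median change over the 10 astrocyte markers was 0.03 per allele. None of them passed as lower, though *Slc1a3*, *S100b*, *Agt* and *Gjb6* had lower medians in cKO-/- than in controls (*Slc1a3* 1685 against 1817 CPM). Summed oligodendrocyte markers were 4175 to 6158 CPM in controls and 4538 to 9929 CPM in cKO-/-, astrocyte markers 4003 to 4799 and 4494 to 6018 CPM, and microglia markers 149 to 161 and 147 to 269 CPM. The part of these cells in the members' changes was not tested. Without Sample_1385 alone 10 members passed, and *Epha4*, *Dcc*, *Ntn1* and *Unc5a* did not. That fit called 899 genes in all.

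**Figure D3:**
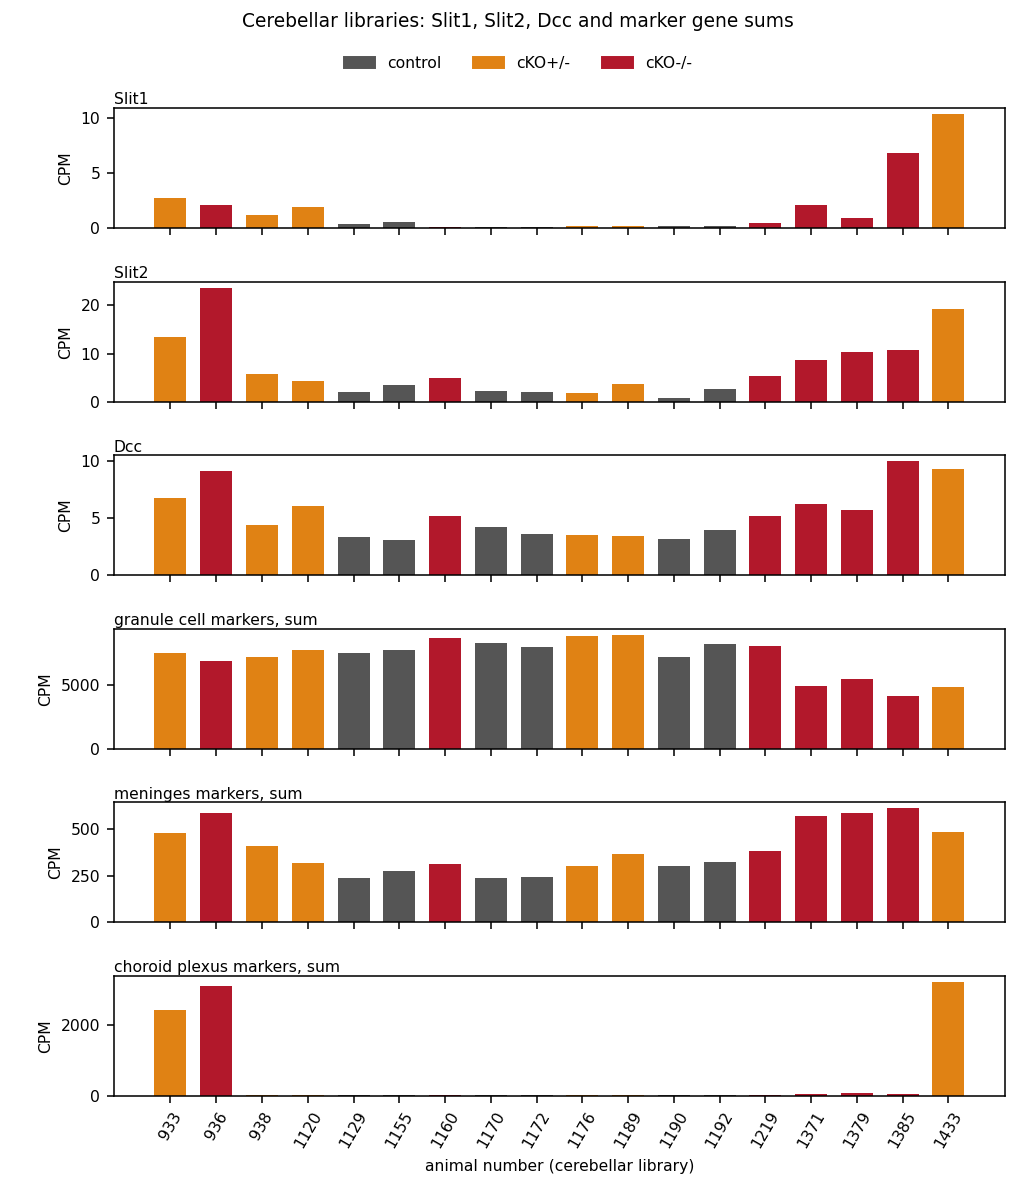
CPM of *Slit1*, *Slit2* and *Dcc* and summed CPM of granule cell, meninges and choroid plexus markers in the 18 cerebellar libraries, in the order of the animal numbers, coloured by genotype. Libraries Sample_933, Sample_936 and Sample_1433 are high in choroid plexus markers and in *Slit2*, and Sample_1371, Sample_1379, Sample_1385 and Sample_1433 are low in granule cell markers.

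In the hippocampus few guidance genes changed, and the clearest change was a fall of *Epha10*. Over 17 libraries, 4 of 38 members passed the adjusted p of 0.05 in the same edgeR fit, against 4.44% of 14339 genes. *Epha10* and *Slit1* fell, and *Slit2* and *Ephb6* rose. With all 18 libraries 2 passed (*Epha10* and *Ephb6*), against 1.72% of all genes. In *Epha10* and *Epha3* the 5 cKO-/- libraries of the fit lay on one side of all controls, against 3.65% of all genes, but *Epha3* was at 0.924 CPM in the library of Sample_1160, below all controls.

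*Epha10*, an Eph receptor without kinase activity, had hippocampal controls at 75.6, 82.9, 74.7, 63.7, 78.2 and 76.3 CPM. The cKO+/- animals were at 48.9 to 64.9 CPM (median 55.8) and the 5 cKO-/- animals at 57.9, 42.1, 30.8, 37.9 and 37.7 CPM, and 36.5 CPM in the library of Sample_1160. All cKO-/- lay below all controls, and cKO+/- overlapped both. The log2 change per allele was -0.43 (SE 0.062, edgeR adjusted p = 0.000438), and -0.45 (SE 0.062, edgeR adjusted p = 0.000464) with 18 libraries. With the term for the span of animal numbers its change was -0.38 (edgeR adjusted p = 0.0576). *Epha10* shares 1.44% of its exon length with *1700125G02Rik* on the other strand.

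*Slit2* was 33.1 to 56.0 CPM in controls, 41.1 to 72.1 CPM in cKO+/- and 53.8 to 73.5 CPM in the 5 cKO-/- (log2 change per allele 0.32, SE 0.071, edgeR adjusted p = 0.0158). The library of Sample_1160 held 20.2 CPM, and with it the change was 0.22 and did not pass (edgeR adjusted p = 0.333). *Ephb6* moved by a small amount, from 85.0 to 98.0 CPM in controls to 102.6 to 114.7 CPM in cKO+/- and 95.3 to 122.8 CPM in the 5 cKO-/- (0.12, SE 0.031, edgeR adjusted p = 0.0277). The library of Sample_1160 was higher, at 138.3 CPM, and with it the change was 0.15 (edgeR adjusted p = 0.0498). This call was lost in 8 of 27 alternatives, among them without Sample_1129, Sample_1155, Sample_1190, Sample_1192, Sample_1219 or Sample_1379. *Slit1* fell by 0.15 (SE 0.041, edgeR adjusted p = 0.0437), from a median of 345.7 CPM in controls to 258.4 CPM in the 5 cKO-/-, with overlap between all groups, and this call was lost in 18 of 27 alternatives, 1 of them added after the data were seen. Sample_1160 held 180.1 CPM of *Slit1*, and with it the change was -0.19 and did not pass (edgeR adjusted p = 0.0799). *Epha3*, also named after its values were seen, was 9.47 to 13.9 CPM in controls and 14.9 to 17.9 CPM in the 5 cKO-/-, but 8.76 to 15.3 CPM in cKO+/-, and did not pass per allele (0.21, edgeR adjusted p = 0.0743, and 0.09 with 18 libraries, edgeR adjusted p = 0.803). *Epha1* and *Efna4* were below the filter, at 0.276 to 1.20 CPM and 0.364 to 1.003 CPM in controls.

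**Figure D4:**
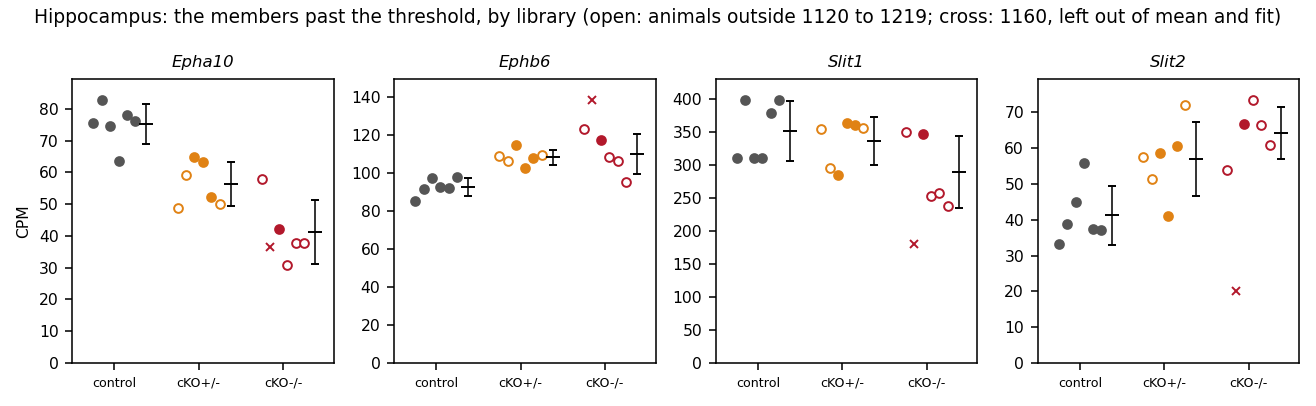
CPM of the 4 members past the threshold in the hippocampus, 1 point per library by genotype, with mean and SD beside each group (6 controls, 6 cKO+/-, 5 cKO-/-). The cross is the cKO-/- library of Sample_1160, which is not in the mean or the fit, and open points are animals outside Sample_1120 to Sample_1219. The control median of *Epha10* is 76.0 CPM, the cKO+/- median 55.8 CPM and the cKO-/- median 37.9 CPM, and Sample_1160 lies below all other libraries for *Slit1* and *Slit2*.

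With the term for animal numbers no member passed in the hippocampus by edgeR's test, 4 members had an unadjusted p under 0.05, and DESeq2 called 1. Choroid plexus markers summed to 5021 and 2461 CPM in controls Sample_1129 and Sample_1170, to 5166 CPM in cKO-/- Sample_1385, to lesser sums in cKO-/- Sample_1219 and cKO+/- Sample_1189, and to 21.7 to 164.6 CPM in the other libraries. Without the hippocampal libraries of Sample_1129, Sample_1170, Sample_1219 and Sample_1385, again added after the data were seen, *Epha10* was the member that passed (-0.42, edgeR adjusted p = 0.0316), and *Slit2* stood at 0.31 (edgeR adjusted p = 0.115). With scores of thalamus and choroid plexus markers as covariates the same 4 members passed. Over all genes, 68 were called with the term for animal numbers, 154 without the 4 libraries and 591 with the scores, beside 636 in the main fit. Of 10 endothelium markers 4 rose in the hippocampus, with sums of 156 to 185 CPM in controls and 169.6 to 277 CPM in the 6 cKO-/- libraries. Of 10 meninges markers 1 rose, with a median change of 0.36 over the list and sums of 74.8 to 349 CPM in controls and 133 to 460.0 CPM in cKO-/-. The part of these cells in the members' changes was not tested.

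Whether the 2 tissues responded alike was tested as a tissue difference of the change per allele, in a fit over 35 libraries. Of 39 members 5 passed the adjusted p of 0.05, against 1.63% of 14870 genes. All 5 had a lower value in the hippocampus than in the cerebellum. *Epha5* changed by 0.63 per allele in the cerebellum and by 0.02 in the hippocampus, where controls ran from 122.2 to 207.1 CPM and cKO-/- from 138.7 to 168.7 CPM without Sample_1160 (tissue difference -0.62, SE 0.10, edgeR adjusted p = 0.000712). *Ntng2* changed by 0.35 and -0.06 (difference -0.42, SE 0.091, edgeR adjusted p = 0.0102). *Ephb6* rose in both tissues, by 0.44 and by 0.12, and the difference of -0.33 passed (SE 0.078, edgeR adjusted p = 0.0208). *Epha10* changed by 0.18 and -0.43 (difference -0.63, SE 0.15, edgeR adjusted p = 0.0219). Its cerebellar change did not pass, with overlap between cKO-/- and controls. Over 28 alternatives it ran from -0.06 to 0.36. That range takes in the fit of cKO-/- against control, whose value is for both alleles and not per allele. *Robo1* changed by 0.36 and 0.06 (difference -0.31, SE 0.081, edgeR adjusted p = 0.0360), and this call was lost with the animal as a block, a fit in which *Efna1* passed in its place. The block fit called 354 genes in all, beside 243 without the block. For *Slit2* (1.11 and 0.32) and *Dcc* (0.48 and 0.04) the tissue difference did not pass (edgeR adjusted p = 0.134 and 0.0636).

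**Figure D5:**
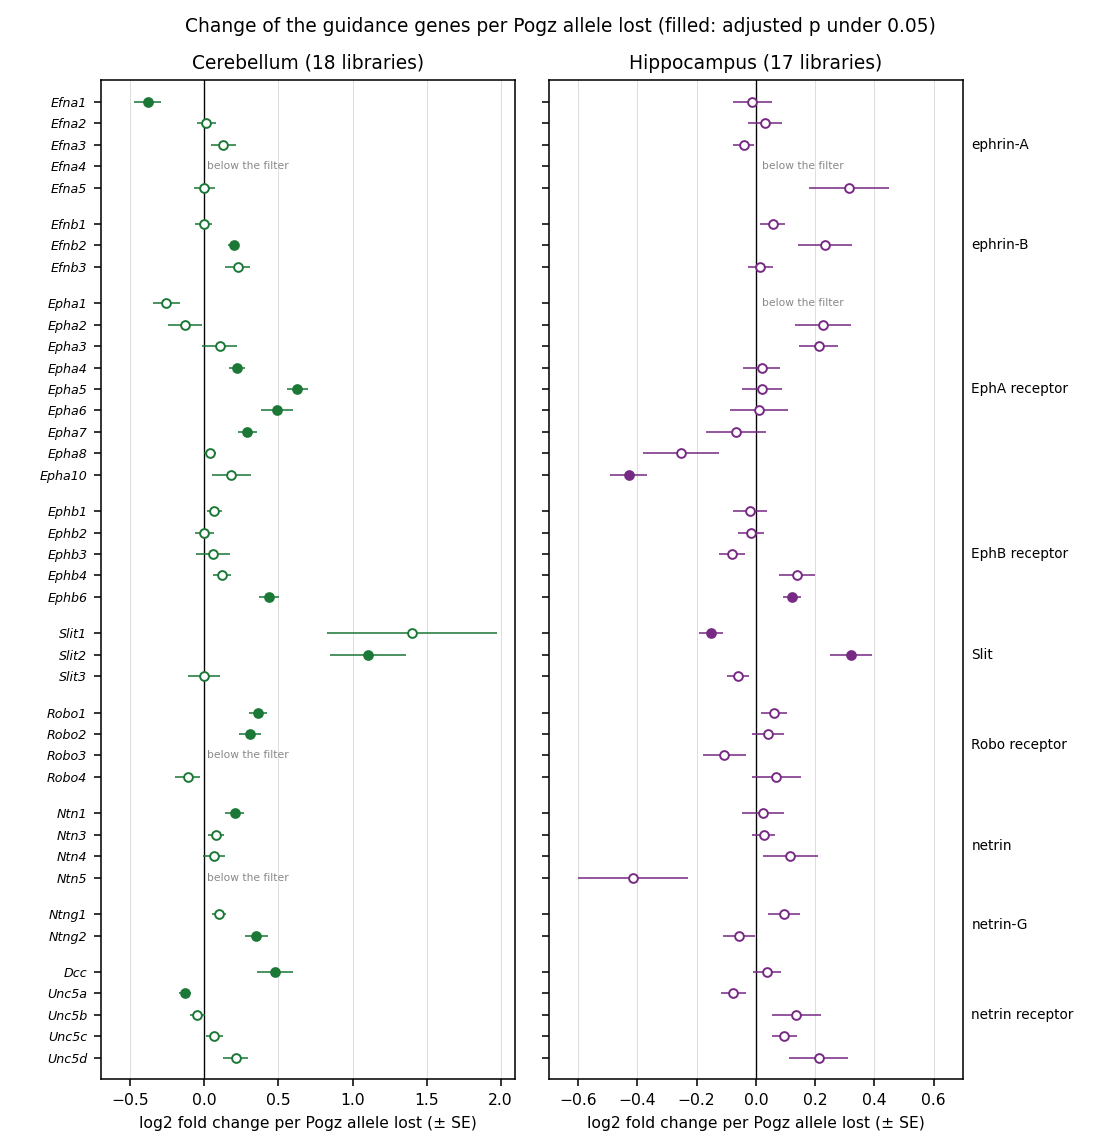
Log2 fold change per *Pogz* allele lost, with its SE, for each member in the cerebellum (left, 18 libraries) and the hippocampus (right, 17 libraries), on different horizontal scales. Filled points passed an adjusted p of 0.05. The filled cerebellar points are mostly EphA receptors, Robo receptors and netrin genes above 0, and the farthest hippocampal filled point is *Epha10* at -0.43.

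The cerebellar controls enter both the tissue contrast and the cerebellar genotype comparison, so the 2 sets of values are given side by side and their likeness is not a result. Hippocampus minus cerebellum in controls, the members that rose in the mutant cerebellum stood at 3.49 (*Epha5*), 2.57 (*Ephb6*), 1.58 (*Robo1*), 0.02 (*Efnb2*), 3.26 (*Ntng2*), 3.91 (*Epha6*), 2.89 (*Epha7*), 4.34 (*Slit2*), 1.75 (*Robo2*), 3.92 (*Dcc*), 3.95 (*Epha4*) and -3.27 (*Ntn1*) on the log2 scale. In cerebellar cKO-/- *Epha5* reached 40.2 CPM at most, and the lowest hippocampal control stood at 122.2 CPM on its own tissue's scale. Of 14 markers of hippocampal neurons 10 were above the filter in the cerebellum and 3 rose there, and the list summed to 344 to 419 CPM in cerebellar controls and 360 to 497 CPM in cerebellar cKO-/-, against 5599 to 8113 CPM in hippocampal controls.

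By edgeR's adjusted p, males and females differed in 1 member. In the cerebellum no member passed the test of sex with edgeR, 2 had an unadjusted p under 0.05, and DESeq2 called none, against 0.0499% of all genes. In the hippocampus *Slit3* passed, against 0.907% of all genes, and was named after its values were seen. It was 73.3 to 100.7 CPM in the 9 males and 60.6 to 72.1 CPM in the 8 females of the fit, with no overlap in any genotype (log2 male minus female 0.42, SE 0.059, edgeR adjusted p = 0.00177). The library of Sample_1160, a female, held 19.1 CPM. In the hippocampus 9 members had an unadjusted p under 0.05 for sex with edgeR, and DESeq2 called 4.

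The partners of these systems were taken from 3 lists chosen with earlier results of these data known. Of 26 effectors of Eph receptors and ephrins (exchange factors, adaptors and kinases) none passed in either tissue with edgeR, although 7 in the cerebellum and 1 in the hippocampus had an unadjusted p under 0.05 and DESeq2 called 3 and 0. These counts and those that follow stand beside 13.7% of all genes called in the cerebellum and 4.44% in the hippocampus. Of 24 partners of Slits and Robo receptors 2 fell in the cerebellum, *Cables1*, an adaptor that links Robo to cadherin (log2 change per allele -0.17, edgeR adjusted p = 0.0166), and *Myo9b*, a myosin bound by Robo (-0.22, edgeR adjusted p = 0.0353). In the hippocampus *Arhgap39*, another partner of Robo, fell (-0.19, edgeR adjusted p = 0.0264). Of the 24 tested partners of netrins, Dcc and Unc5 in the cerebellum, *Dscam*, an adhesion molecule and netrin receptor (0.27, edgeR adjusted p = 0.0132), and *Dapk1*, a kinase bound by Unc5 receptors (0.24, edgeR adjusted p = 0.0354), rose and *Ablim1*, an actin-binding protein, fell (-0.21, edgeR adjusted p = 0.0320). *Dapk1* fell in the hippocampus (-0.23, edgeR adjusted p = 0.00417), and *Trio*, an exchange factor in the same list, did not pass there (-0.09, edgeR adjusted p = 0.0547). The median change of each list lay between -0.02 and 0.05 in both tissues, beside 0.0009 and 0.0017 over all genes.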

How the data were processed

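Per the labels and the study's methods, the authors made poly(A) TruSeq libraries, aligned 43-base paired reads with STAR 250a to mm9 and deposited raw counts per gene, 1 table per tissue. The positions in the tables overlap those of GRCm38 for 99.3% of 23204 genes matched by symbol, so positions here are given as GRCm38. The annotation release and the use of strand are not given in the sources used here.

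Counts were fitted over all genes with edgeR 4.0.16 (R 4.3.3): genes above 1 CPM in at least 6 libraries, TMM scaling, quasi-likelihood F-test, with terms for sex and for intact copies of *Pogz* (2, 1 or 0), Benjamini-Hochberg adjustment over all genes tested and a threshold of 0.05. DESeq2 1.42.0 was an alternative. In the hippocampus, filter and scaling used 18 libraries and the fit 17. Replicates are separate animals. Each animal, by its label, gave both tissues. Its deviations in the tissues correlated with a median r of 0.189 across genes (17 animals), and with the animal as a replicate block the fits were repeated.

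Members and gene lists were chosen with earlier results of these data known. Named with values were members past the threshold for genotype or the tissue difference, the 6 largest tissue differences each way, members below the filter, and 3 pathway genes per tissue by adjusted p. Others, such as *Slit3*, *Epha3*, *Epha8* under genotype, *Myo9b* and cerebellar *Dapk1*, were named after their values were seen. On simulated counts, the cerebellar fit called 51 of 64 genes changed by a log2 of 0.3 and 9 of 13827 unchanged genes. At 0.3 the hippocampal fit called 56 of 79, the tissue difference 35 of 59 and the tissue contrast 6 of 71. The simulated counts carried no difference by animal number or cell type.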

Additional observations from a re-analysis of the deposited data

Results flagged for a closer look

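For 23 genes, each group of libraries was searched for 1 library far from the others, and 12 of 138 groups held one. About 5 percent was assumed as the share by chance. The groups share animals across genes, so 1 odd library can be found several times, and the count is not a test against that share. The hippocampal library of Sample_1160 is not among those found, which does not mean that it lay near the others. It held 27.2 CPM of *Robo1*, against 77.5 to 90.2 CPM in the other hippocampal cKO-/- libraries. In the cerebellum of cKO+/- mice, Sample_1433 stood apart for *Slit1* (10.38 CPM, the nearest other library 2.736 CPM), *Epha10* (20.36 against 10.91 CPM) and *Ntn4* (24.37 against 34.57 CPM), and Sample_938 for *Robo2* (66.03 against 52.03 CPM). In cerebellar cKO-/- mice Sample_936 stood apart for *Slit2* (23.73 against 10.8 CPM) and *Ntng2* (10.24 against 7.237 CPM), and Sample_1385 for *Slit1* (6.796 against 2.14 CPM). Among cerebellar controls Sample_1190 was low for *Robo1* (17.86 against 26.76 CPM). In the hippocampus the control Sample_1155 was high for *Epha4* (610.4 against 468.5 CPM) and *Epha7* (348 against 230.1 CPM), the control Sample_1129 for *Ntn1* (15.44 against 10.39 CPM), and the cKO+/- animal Sample_1433 for *Epha2* (1.679 against 1.097 CPM).

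The change per *Pogz* allele differed between the tissues for 5 members by edgeR's test of the difference, hippocampus minus cerebellum on the log2 scale. The differences were -0.6177 for *Epha5*, -0.4202 for *Ntng2*, -0.3268 for *Ephb6*, -0.6258 for *Epha10* and -0.3134 for *Robo1*.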

How the results depend on the processing

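With a term for the span of animal numbers 4 members passed in the cerebellum and 0 in the hippocampus, where 4 had an unadjusted p under 0.05 by edgeR and DESeq2 called 1. Over all genes this term took the calls from 1916 to 308 and from 636 to 68. Without the 4 cerebellar libraries low in granule cell markers 9 members passed (503 genes in all), without the 4 hippocampal libraries high in choroid plexus markers 1 (154 genes), and both were chosen after seeing the data. With all 18 hippocampal libraries 2 passed in the hippocampus and 3 in the tissue difference, for which DESeq2 called 8. Over all genes, the fits with all 18 libraries called 246 in the hippocampus and 227 for the tissue difference. When each animal was left out in turn, 10 to 16 members passed in the cerebellum, 2 to 5 in the hippocampus and 2 to 7 for the tissue difference, and 33 to 34 in the tissue contrast. Over all genes these fits called 899 to 2555 in the cerebellum, 278 to 929 in the hippocampus and 115 to 464 for the tissue difference. In the tissue contrast they called 8914 to 9560, beside 10227 in the main fit. DESeq2 called 1056 genes in the hippocampus and 461 for the difference, beside 636 and 243 with edgeR. In the tissue contrast with an animal left out, *Slit1*, *Robo3* and *Ntn5* dropped out each time because only 5 hippocampal libraries were left, fewer than the 6 that the filter asks for. The fewest members passed in the hippocampus (2) without Sample_1129, Sample_1155, Sample_1190, Sample_1192 or Sample_1379, and for the tissue difference (2) without Sample_1190 or Sample_1385. No named result changed direction while it passed. With the animal as a replicate block 5 members passed for the tissue difference, with *Robo1* lost and *Efna1* gained, the same 37 passed in the tissue contrast, and it changed no other call of a member. Over all genes the block gave 354 calls for the tissue difference, beside 243 without it, and 10377 in the tissue contrast. *Robo1*, *Epha10* and *Ephb6* lost the call of a tissue difference in 10, 5 and 4 of 24 alternatives. Apart from the animal-number and library settings above, the cause of these changes was not tested. Low counts limit *Slit1*, *Ntn5* and *Robo3* in the cerebellum.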
